A study of Mus musculus with 16 samples.

Results

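The inner root sheath keratins are 8 genes, Krt25, Krt26, Krt27, Krt28, Krt71, Krt72, Krt73 and Krt74, taken by symbol from the 55359 gene IDs counted in each library of a mouse skin series. All 8 had reads, and all 8 were among the 17531 genes that passed the filter on low counts, which asks for 0.473 CPM (before TMM scaling) in at least 4 libraries. Krt74 met it in just 4, 3 of WT control and 1 of KO control skin, and the other 7 in all 8 control libraries. The RNA came from dorsal skin of male mice at 8 weeks of age, and its condition is labelled telogen, in which hair follicles rest. Skin was wild type (WT) or came from a double knockout of Tnfrsf1a and Tnfrsf1b (KO), the genes of both TNF receptors, and had received either no UVB (control) or the treatment that the labels call 3xUVB (UVB). Genotype and treatment give 4 groups, with 4 libraries of poly(A)-enriched RNA in each. The sources used here give no strain, no deleted part of either receptor gene and no UVB dose or schedule. The labels do not say whether the libraries of a group are separate animals, so a p-value measures the spread between libraries, part of which may be technical.

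Keratins form filaments from pairs of a type I and a type II chain, and Krt25 to Krt28 are the type I and Krt71 to Krt74 the type II keratins of the inner root sheath. This sheath is the cylinder of Henle's layer, Huxley's layer and cuticle that surrounds and moulds the hair shaft in a growing (anagen) follicle and is broken down before the hair leaves the skin. It is built from matrix cells at the base of the follicle, and follicles at rest do not build it. Mutations of Krt71 or Krt25 are known from mice with wavy coats.

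The 16 libraries held 15644375 to 23200649 reads in genes. Tnfrsf1a was at 82.2 to 105 CPM (reads scaled to library size with TMM factors) in KO and at 133 to 162 in WT libraries, and Tnfrsf1b at 15.6 to 27.9 and 33.6 to 69.5 CPM, so both targeted genes were lower in every library labelled KO. Within groups, chi-square per degree of freedom between pairs of libraries was 14.3 to 151, so no library was counted as a repeat of another. The skin markers Krt1, Krt10, Krt5, Krt14, Col1a1 and Col3a1 summed to 21810 to 58180 CPM in WT and 40000 to 74100 CPM in KO libraries. WT UVB library 2 (higher than its group) and KO control library 4 (lower than its group) stood apart in several of the 8 genes, and where a call on the sheath keratins changed without one of them, its value without that library is given.

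Promoter sequences are shown first, as RefSeq gives them for GRCm38.p6. An entry matched 7 of the 8 genes, each from 250 bases before to 50 bases after the annotated start. Capitals mark TATAAA, the core of a TATA box, and AGATAA, a motif bound by GATA factors, of which GATA3 is known for its role in the inner root sheath. The 4 promoters that hold both are those of Krt25 (chr11:99322902-99323201, minus strand), Krt27 (chr11:99351069-99351368, minus strand), Krt71 (chr15:101743048-101743347, minus strand) and Krt73 (chr15:101802311-101802610, minus strand). Krt72 (chr15:101786471-101786770, minus strand), a gene that moved with them and holds neither on the strand read, is shown for contrast.
Krt25: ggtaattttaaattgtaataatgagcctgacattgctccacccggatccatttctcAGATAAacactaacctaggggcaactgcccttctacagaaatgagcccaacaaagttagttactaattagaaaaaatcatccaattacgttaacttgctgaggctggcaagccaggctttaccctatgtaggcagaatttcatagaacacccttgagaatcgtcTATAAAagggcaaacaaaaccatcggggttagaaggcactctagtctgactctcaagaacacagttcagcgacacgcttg
Krt27: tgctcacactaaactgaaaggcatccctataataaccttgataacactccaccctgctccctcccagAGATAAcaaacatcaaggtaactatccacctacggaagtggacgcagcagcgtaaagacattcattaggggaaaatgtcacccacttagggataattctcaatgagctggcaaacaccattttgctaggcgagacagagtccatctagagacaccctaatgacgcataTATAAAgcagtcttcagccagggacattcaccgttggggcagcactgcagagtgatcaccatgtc
Krt71: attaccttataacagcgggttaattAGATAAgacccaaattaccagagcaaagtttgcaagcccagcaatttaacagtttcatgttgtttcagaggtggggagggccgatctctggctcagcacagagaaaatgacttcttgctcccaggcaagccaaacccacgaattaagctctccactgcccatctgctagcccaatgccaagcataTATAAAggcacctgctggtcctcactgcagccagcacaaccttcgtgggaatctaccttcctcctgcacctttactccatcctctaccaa
Krt73: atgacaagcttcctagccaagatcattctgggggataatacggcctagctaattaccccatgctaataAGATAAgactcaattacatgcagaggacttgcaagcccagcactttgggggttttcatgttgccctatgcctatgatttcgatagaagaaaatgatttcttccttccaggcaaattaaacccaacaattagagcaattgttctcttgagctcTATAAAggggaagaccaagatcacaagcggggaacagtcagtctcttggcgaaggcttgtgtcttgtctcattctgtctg
Krt72: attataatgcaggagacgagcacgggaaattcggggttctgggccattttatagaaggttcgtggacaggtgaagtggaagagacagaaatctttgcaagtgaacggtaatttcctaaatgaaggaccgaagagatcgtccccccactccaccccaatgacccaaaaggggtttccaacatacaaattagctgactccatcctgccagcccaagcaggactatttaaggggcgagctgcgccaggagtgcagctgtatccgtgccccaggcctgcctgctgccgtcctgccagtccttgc

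TATAAA lay on the transcribed direction within the 45 bases before the start in 6 of the 7 promoters, against 2.45% of all 32851 promoters of the same length. It began 30 bases before the start in Krt25, Krt26, Krt28 and Krt73, 40 bases before it in Krt71 and 15 in Krt27, while Krt72 had it only on the opposite strand, 203 bases away. AGATAA was found on the transcribed direction in 4 of the 7 and in 5.86% of all promoters, and on either strand in 4 of the 7 and 11.2%. On either strand of the whole window, TATAAA was in 7 of 7 and 13.6%, the homeobox core TAATTG in 4 of 7 and 8.0%, and the TCF/LEF core CTTTGA in 1 of 7 and 16%. No motif searched overlapped another in these windows. The longest run shared by a pair of the 7 promoters, over 21 pairs, was the 14 bases TTGCAAGCCCAGCA of Krt71 and Krt73. These matches are letters in a window, and no binding was measured. The motifs were chosen with earlier results or these sequences known, so the shares do not test whether these promoters differ from others. Any part of the motifs in the changes of the 8 genes was not tested.

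In WT control skin the 8 transcripts were readily counted, and Krt71 stood above the others in each library. Per kilobase of merged exon, Krt71, the type II keratin of all sheath layers, was highest at 235 ± 101 CPM per kb (SD, n = 4), followed by the type I keratins Krt27 at 132 ± 51.7 and Krt25 at 124 ± 60.4. Krt71 exceeded Krt27 in 4 of 4 libraries, whereas Krt27 exceeded Krt25 in 3 of 4, so that the order of this pair was not fixed. The cuticle keratins Krt72 and Krt73 followed at 24.9 ± 11.2 and 21.2 CPM per kb (range of Krt73 9.96 to 32.7), beside Krt28 at 20.5 ± 10.6. Krt72 was above Krt73 in 4 of 4 libraries by 1.02 to 1.51 times, and Krt73 was above Krt28 in 2 of 4. Krt26, a type I keratin of the upper sheath cuticle, stood at 8.32 ± 3.50 CPM per kb. Krt74, which the mouse annotation lists as a transcribed unitary pseudogene, was lowest at 0.583 ± 0.316.

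Type I and type II transcripts were present in nearly equal amounts in the control libraries. Summed per kilobase, the type I to type II ratio was 1.01, 1.02, 1.01 and 0.994 in the WT control libraries, although the sums themselves ranged from 154 to 420 CPM per kb for type I. In KO control libraries the ratio was 1.06, 1.11, 1.04 and 1.14 at sums of 9.50 to 39.1 CPM per kb. Krt71 made up 40.8 to 42.0% of the per-kilobase sum in WT control and 34.8 to 40.9% in KO control libraries. Together the 8 genes took 0.0630 to 0.170% of the reads in genes of WT control libraries, 13940 to 31891 reads, in skin labelled telogen. Whether the hair cycle stage differed between libraries or groups was not tested.

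**Figure D1:**
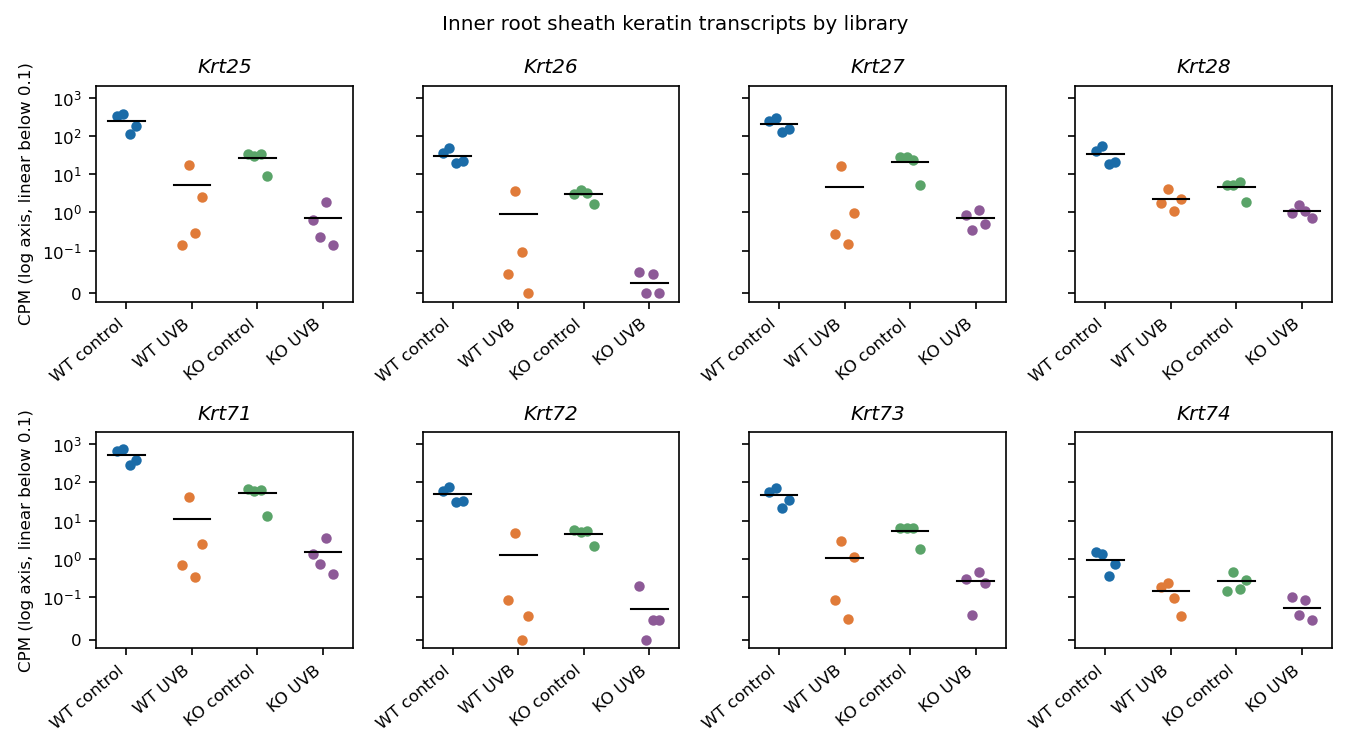
Transcript level of each inner root sheath keratin in 16 libraries, in CPM on an axis that is logarithmic above 0.1 and linear below it. Points are libraries and bars are group means; in each panel the 4 WT control points lie above all 4 WT UVB points, and Krt71 runs from 741 CPM in the highest WT control to 0.339 CPM in the lowest WT UVB library.

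UVB skin was compared with control skin of the same genotype for the levels of these transcripts. Whether these groups also differed in hair cycle stage was not tested. In WT skin all 8 inner root sheath keratins fell, and for each of them every UVB library lay below every control library. Across all genes tested, 18.8% were called in this comparison (adjusted p under 0.05), 8.6% as lower, and in 13.1% the UVB libraries lay below the control libraries without overlap. The median log2 fold change of the 8 was -5.38, against -0.03 over all genes tested. Values below are CPM in libraries 1 to 4, then the log2 fold change ± SE, and the Benjamini-Hochberg adjusted p over all genes of the quasi-likelihood test in edgeR. In bulk skin, fewer sheath cells and less of a transcript per cell cannot be told apart.

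The main type II chain, Krt71, was at 657, 741, 281 and 376 CPM in the WT control libraries and at 0.692, 41.6, 0.339 and 2.44 CPM after UVB (-5.50 ± 1.10, adjusted p = 0.00337). Its 944 reads after UVB came mostly from library 2, which held 878 of them. The groups stayed apart even so, since the lowest control library was at 281 CPM.

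The type I keratins that pair with it behaved alike. Krt25 was at 328, 366, 114 and 176 CPM in control and at 0.138, 17.2, 0.291 and 2.50 CPM in UVB libraries (-5.60 ± 0.94, adjusted p = 0.000968). Krt27 was at 250, 294, 125 and 151 CPM in control and at 0.277, 16.6, 0.145 and 0.944 CPM in UVB libraries (-5.50 ± 0.94, adjusted p = 0.00106). For both genes UVB library 2 was again the highest of its group and still below the lowest control library.

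The cuticle keratins were at 1.11 CPM or less outside UVB library 2. Krt72 went from 57.9, 77.5, 29.9 and 33.3 CPM to 0.0923, 4.84, 0 and 0.0556 CPM (-5.28 ± 0.85, adjusted p = 0.000708). Krt73 went from 55.8, 70.8, 21.6 and 35.5 CPM to 0.0923, 2.85, 0.0485 and 1.11 CPM (-5.48 ± 0.71, adjusted p = 0.000127). Krt26 went from 34.5, 46.9, 19.1 and 21.6 CPM to 0.0461, 3.56, 0.0969 and 0 CPM (-5.00 ± 0.80, adjusted p = 0.000632). The 3 genes thus shared the order of the UVB libraries only at its top.

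Krt28 and Krt74 fell by less. Krt28, a type I keratin of all sheath layers, was at 40.5, 54.2, 18 and 20.3 CPM in control and at 1.75, 3.98, 1.07 and 2.28 CPM in UVB libraries (-3.87 ± 0.46, adjusted p = 6.0e-05). Krt74 was at 1.48, 1.30, 0.350 and 0.717 CPM against 0.185, 0.237, 0.0969 and 0.0556 CPM (-2.65 ± 0.52, adjusted p = 0.00236), with 78 reads in control and 12 in UVB libraries. Both had their highest UVB value in library 2 as well, at a smaller distance from the rest of the group.

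Leaving out WT UVB library 2 made the fall larger for all 8 genes and moved their median from -5.38 to -8.44. Without it the log2 fold change was -8.05 for Krt25, -8.85 for Krt27, -8.83 for Krt71, -6.85 for Krt73, -4.28 for Krt28 and -2.97 for Krt74. Krt26 and Krt72 then kept 3 reads each over 3 libraries, and the control level was higher by 587 times for Krt26 (95% counting interval 201 to 2850) and by 954 times for Krt72 (326 to 4630). These intervals cover counting error only. No single library, when left out, took any of the 8 falls in WT skin past the threshold.

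In KO skin 7 of the 8 genes fell after UVB, from a lower starting level, and for all 8 the groups did not overlap. Of all genes tested 32.3% were called in this comparison, 15.1% as lower, and 11.5% were lower without overlap. The median over the 8 was -4.95, against -0.02 over all genes. This comparison shares no library with the one in WT skin.

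Krt71 went from 67.7, 60.1, 63.8 and 13.5 CPM in the KO control libraries to 1.34, 0.742, 3.55 and 0.410 CPM after UVB (-5.06 ± 1.19, adjusted p = 0.00539). Krt25 went from 34.1, 29.5, 33.5 and 8.98 CPM to 0.647, 0.228, 1.85 and 0.137 CPM (-5.17 ± 1.10, adjusted p = 0.00291). Krt27 went from 27.7, 27.7, 22.9 and 5.21 CPM to 0.846, 0.342, 1.15 and 0.501 CPM (-4.85 ± 1.10, adjusted p = 0.00418). In all 3 genes KO control library 4 was the lowest control and KO UVB library 3 the highest UVB library, and these did not meet. Without KO UVB library 3 the values were -5.94 for Krt71 and -6.27 for Krt25.

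Among the cuticle keratins, Krt72 went from 5.59, 4.96, 5.49 and 2.22 CPM to 0.199, 0, 0.0462 and 0.0455 CPM (-5.84 ± 1.33, adjusted p = 0.00432, and -6.89 without KO UVB library 1, which held 4 of its 6 reads). Krt73 went from 6.46, 6.23, 6.28 and 1.83 CPM to 0.299, 0.0570, 0.462 and 0.228 CPM (-4.25 ± 0.86, adjusted p = 0.00208). Krt26 kept 2 reads over the 4 KO UVB libraries against 243 over the 4 KO controls, a level 122 times higher in control (95% counting interval 33.4 to 1010, adjusted p = 0.00332). Its control libraries were at 3.01, 3.86, 3.19 and 1.66 CPM, all above the highest UVB value of 0.0498 CPM.

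Krt28 fell least among the genes called, from 5.25, 5.17, 6.39 and 1.89 CPM to 0.946, 1.60, 1.11 and 0.729 CPM (-2.11 ± 0.49, adjusted p = 0.00465). Krt74 had 22 reads in control and 6 in UVB libraries, at 0.146, 0.466, 0.160 and 0.277 CPM against 0.0995, 0.0570, 0.0923 and 0.0455 CPM. Its value of -1.78 ± 0.68 did not pass the test (adjusted p = 0.0559), and did so without WT control library 3 (0.0309) or KO control library 1 (0.0441).

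**Figure D2:**
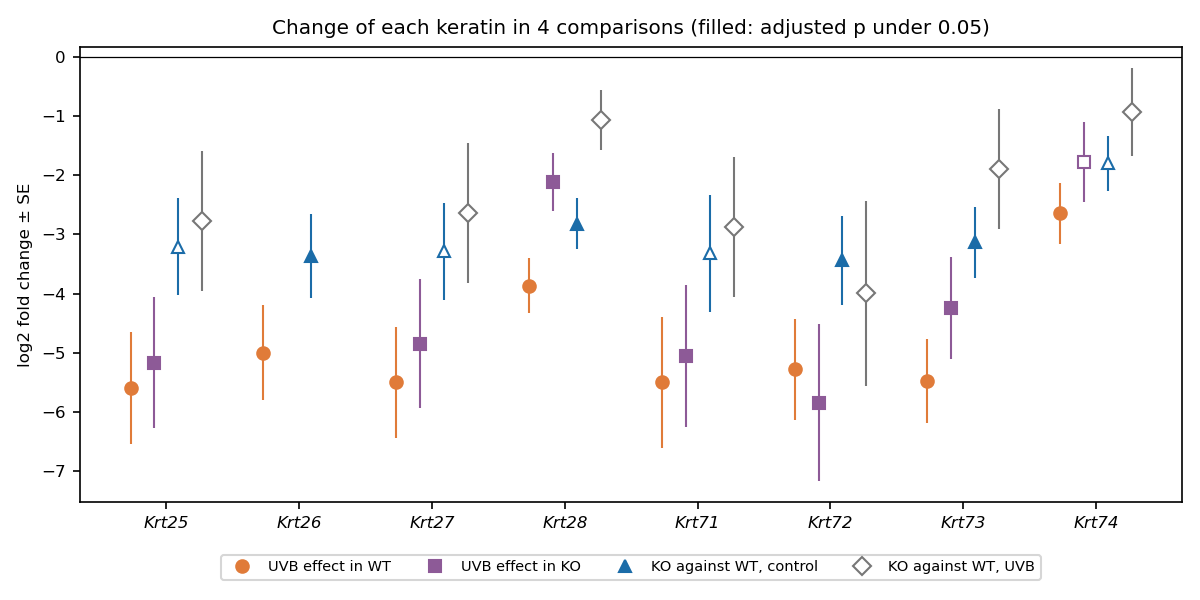
log2 fold change ± SE of the 8 genes in 4 comparisons from 1 edgeR model (filled symbols, adjusted p under 0.05; open symbols, not called). The UVB effects reach -5.60 in WT skin; Krt26 is not drawn in the comparisons with KO UVB skin, where it had 2 reads.

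KO and WT control skin were compared to show the difference between these groups without UVB. All 8 genes had lower means in KO control skin and 4 of the 8, Krt26, Krt28, Krt72 and Krt73, were called lower, against 1.69% of all genes called and 1.28% called lower. In 7 of the 8, all but Krt74, every KO control library lay below every WT control library, which held for 4.63% of all genes. All 8 had an unadjusted p under 0.05 with a lower value in KO, as did 5.72% of all genes. The median log2 fold change was -3.25, against 0.00 over all genes. This comparison uses the same control libraries as the UVB comparisons above, so its values are not independent of theirs.

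Krt28 had the smallest adjusted p, at 33.3 ± 17.2 CPM in WT and 4.67 ± 1.94 CPM in KO control skin (-2.82 ± 0.43, adjusted p = 0.00287). The cuticle keratins followed, Krt73 at 45.9 ± 21.7 and 5.20 ± 2.25 CPM (-3.13 ± 0.60, adjusted p = 0.0138), Krt26 at 30.5 ± 12.8 and 2.93 ± 0.920 CPM (-3.36 ± 0.71, 0.0240) and Krt72 at 49.6 ± 22.4 and 4.56 ± 1.59 CPM (-3.43 ± 0.75, 0.0289). The 3 most abundant members had values of the same size and missed the threshold. Krt71 was at 514 ± 220 and 51.3 ± 25.4 CPM (-3.32 ± 0.98, adjusted p = 0.142), Krt27 at 205 ± 80.1 and 20.9 ± 10.7 CPM (-3.29 ± 0.82, 0.0606) and Krt25 at 246 ± 120 and 26.5 ± 11.9 CPM (-3.21 ± 0.82, 0.0695). For Krt71 the highest KO control library, at 67.7 CPM, was below the lowest WT control library, at 281 CPM. Krt74 was at 0.961 ± 0.521 and 0.262 ± 0.148 CPM (-1.80 ± 0.47, adjusted p = 0.0704), and its groups overlapped.

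The number called in this comparison moved with the libraries and the tool, while the direction did not. The Krt28 call held without any 1 library (adjusted p 0.00107 to 0.0148). The Krt26 and Krt72 calls ended without WT control library 1 (0.0705 and 0.0842) or 2 (0.0837 and 0.107) and without KO control library 1 (0.0728 and 0.0730), 2 (0.0580 and 0.0738), 3 (0.0755 and 0.0796) or 4 (0.0833 and 0.0959). The Krt73 call ended without WT control library 2 (0.0547) or KO control library 4 (0.0513). Further genes passed, beside Krt26, Krt28, Krt72 and Krt73, when WT UVB library 1, 2 or 3 was left out. These libraries lie outside the comparison but share its estimate of the spread. Without WT UVB library 2, 7 of the 8 were called, with Krt25 at 0.00699, Krt27 at 0.000855 and Krt71 at 0.00522. Krt25 and Krt27 also passed without WT UVB library 1 (0.0422 and 0.0432) or 3 (0.0453 and 0.0369). Krt74 passed without WT control library 3 (0.0185), which is part of the comparison. With 1 library left out, 161 to 362 of all genes were called. A fit of the 2 control groups alone called 7 of the 8 lower, limma voom 7 and DESeq2 2 (Krt28 and Krt73), against 1.44%, 2.13% and 1.62% of all genes.

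After UVB, KO and WT skin were compared at levels near the limit of counting. edgeR and limma voom called 0 of the 8 genes and DESeq2 called 1, Krt26 (adjusted p = 0.0300), while 0.856%, 6.37% and 3.75% of all genes were called by these tools. Unadjusted p was under 0.05 with a lower value in KO for 5 of the 8, against 7.16% of all genes. The median over the 8 was -2.71, against 0.01 over all genes, and the groups overlapped for each gene. Krt71, at 11.3 ± 20.3 CPM in WT UVB and 1.51 ± 1.42 CPM in KO UVB skin, had -2.88 ± 1.18 (adjusted p = 0.245), and Krt28, at 2.27 ± 1.25 and 1.10 ± 0.369 CPM, had -1.07 ± 0.51 (0.317). These values rest on WT UVB library 2. Without it the median over the 8 was -0.42, and 0 of the 8 had an unadjusted p under 0.05 with a lower value in KO (5.25% of all genes did). Krt25 moved from -2.78 to -0.32 and Krt73 from -1.90 to -0.52. Krt26 had 78 reads in WT UVB and 2 in KO UVB libraries, a level 38.9 times higher in WT (95% counting interval 10.4 to 327). Without WT UVB library 2 it kept 3 reads in WT UVB skin and moved from -4.95 to -0.86, values that rest on these few reads. The sign then turned for Krt27 (0.72), Krt71 (0.46) and Krt72 (0.52), none of which was called.

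Whether the fall differed between genotypes was tested as the log2 change after UVB in KO skin less the one in WT skin. None of the 8 was called by edgeR (0 of 8), DESeq2 (0 of 8) or limma voom (0 of 8), which called 0.0228%, 1.2% and 2.62% of all genes. In edgeR 1 of the 8, Krt28, had an unadjusted p under 0.05, as did 12.8% of all genes. Its difference was 1.76 ± 0.67 (adjusted p = 0.290), a smaller fall in KO skin. For Krt71 the difference was 0.44 ± 1.54 (adjusted p = 0.925), an SE wider than the value itself. Without WT UVB library 2 the difference was 3.78 for Krt71 and the median over the 8 moved from 0.55 to 2.75, with 0 called. In that fit 6 of the 8 had an unadjusted p under 0.05. The share of all genes given above is for the 16 libraries and not for that fit, so this count has no measure beside it.

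Krt28 kept a larger share of the remaining transcripts after UVB. There were 5.41 to 7.32 reads of Krt28 per 100 of Krt71 in WT control and 7.75 to 13.9 in KO control libraries, against 9.57 to 314 in WT UVB and 31.2 to 215 in KO UVB libraries. Per kilobase it made up 3.06 to 4.02% of the sum of the 8 in WT control and 4.26 to 6.52% in KO control libraries. After UVB it made up 5.37 to 58.1% in WT and 15.9 to 57.2% in KO libraries. The 5.37% was that of WT UVB library 2, and the 58.1% that of WT UVB library 1, with 71 reads of the 8 genes. The type I to type II ratio was 2.59, 0.992, 3.90 and 1.93 in WT UVB and 1.61, 3.30, 1.23 and 2.45 in KO UVB libraries. WT UVB library 2, the only UVB library of either genotype with over 180 reads of the 8 genes (it held 1916), had a ratio close to those of the control libraries. Krt27 had 38.0 to 44.6 reads per 100 of Krt71 in WT control, 38.6 to 42.9 in WT UVB, 36.0 to 46.1 in KO control and 32.5 to 122 in KO UVB libraries, the widest range of the 4 groups.

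**Figure D3:**
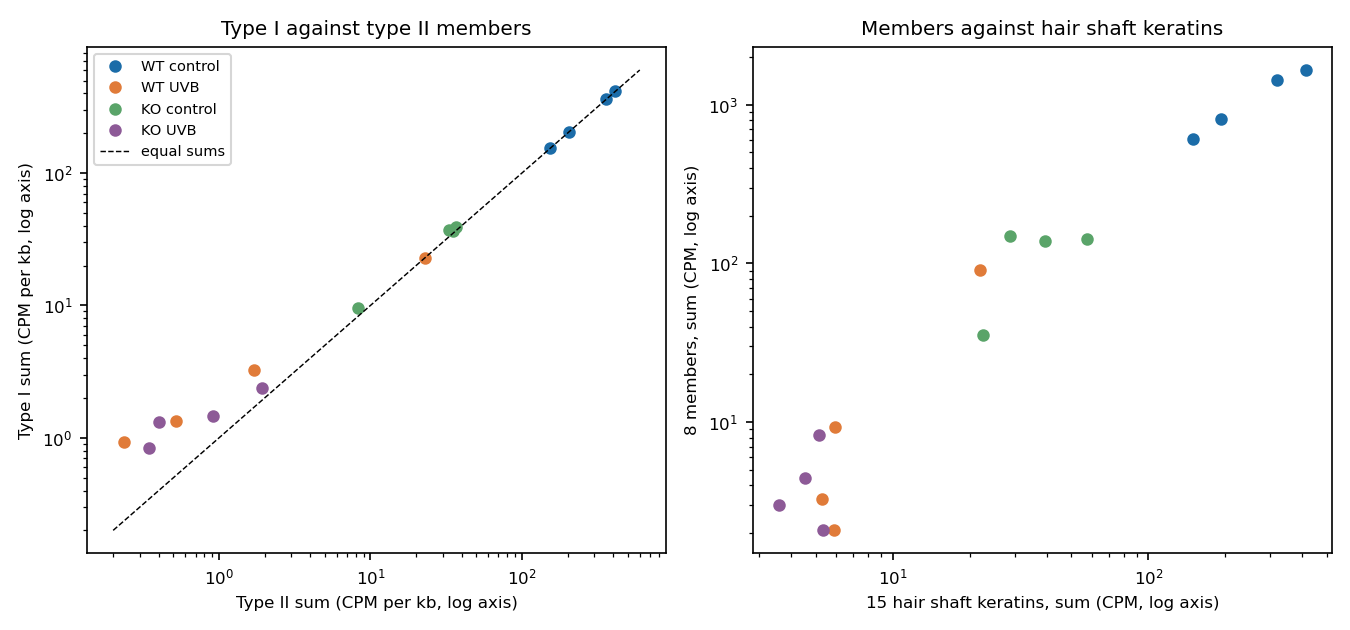
Left, type I against type II members, each summed in CPM per kb, with a dashed line of equal sums; right, the 8 members against 15 hair shaft keratins, summed in CPM; all axes are logarithmic and points are libraries. Control libraries follow the line of equal sums (ratio 0.994 to 1.14), and UVB libraries other than WT UVB library 2 lie above it.

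The type I and type II members sit in separate keratin clusters, and the tested keratin genes beside them were not called lower after UVB, apart from Krt77 in KO skin. On chromosome 11 the annotated order is Krt222, Krt24, Krt25 to Krt28, Krt10, Krt12 and Krt20, and on chromosome 15 it is Krt6b, Krt6a, Krt5, Krt71, Krt74, Krt72, Krt73, Krt2, Krt1 and Krt77. Krt10, a keratin of the upper epidermal layers next to Krt28, rose after UVB in WT (1.93 ± 0.30, adjusted p = 0.000423) and in KO skin (1.64 ± 0.30, 0.000894). Krt24, on the other flank, was at 0.04 ± 0.26 in WT (adjusted p = 0.925) and -0.19 ± 0.26 in KO skin (0.607). On chromosome 15 the basal epidermal keratin Krt5 rose in WT (0.98 ± 0.24, adjusted p = 0.0114) and KO skin (0.77 ± 0.24, 0.0242). Krt2, a keratin of the upper epidermis that follows Krt73, rose from 1.07 ± 0.765 to 46.3 ± 14.3 CPM in WT (5.38 ± 0.53, adjusted p = 1.5e-05) and from 0.974 ± 0.350 to 4.26 ± 3.02 CPM in KO skin (2.13 ± 0.54, 0.00778). Krt77 in KO skin was at -1.20 ± 0.37 (adjusted p = 0.0222), and Krt12 had too few reads to be tested.

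**Figure D4:**
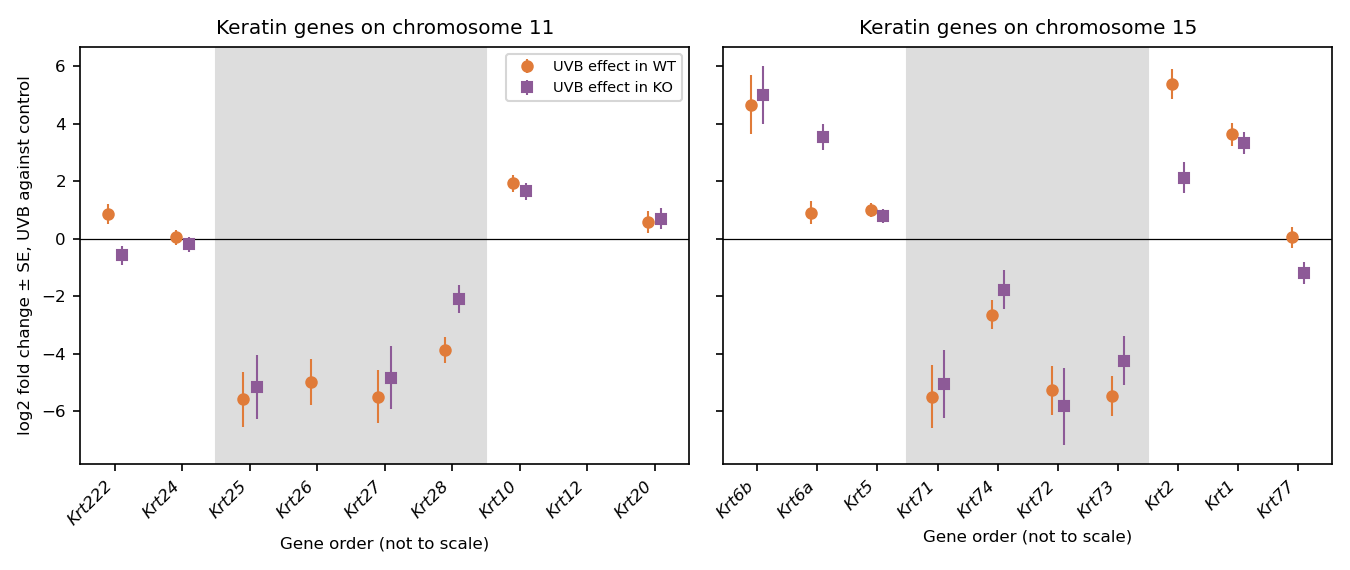
log2 fold change ± SE after UVB for keratin genes in their order along chromosomes 11 and 15 (not to scale), in WT and KO skin, with the members on a grey ground. Members lie between -1.78 and -5.84, while Krt10 and Krt2 beside them are above 0; Krt26 in KO skin (2 reads) and Krt12 (not tested) are not drawn.

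Reads of close relatives and of the opposite strand were looked at as possible sources of these counts. Of the 50-base stretches of each transcript, 10.9% of those of Krt25 and 11.1% of those of Krt27 also occurred in another gene, mostly each other or Krt28, and 0.154 to 2.43% in the other 6 genes. Reads of these stretches may be lost or split, and values of Krt25 and Krt27 carry that uncertainty. On the opposite strand the 8 genes had 591 reads, 0.571% of their total, and no annotated gene overlapped any of them. This share was highest for Krt26, at 2.05%, and the control libraries gave most of the total. After UVB some libraries had as many opposite-strand as counted reads of Krt26, or more. KO UVB library 1 had 3 beside 1 and WT UVB library 4 had 2 beside 0, while WT UVB library 2 had 2 beside 75.

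Transcripts of the proteins that cross-link and fill the sheath did not move as 1 group. In bulk skin, their reads from the sheath and from other layers cannot be told apart. For this list and those below, the share of all genes called lower was 8.6% after UVB in WT, 15.1% after UVB in KO and 1.28% in KO against WT control skin, and 10.2% and 17.2% were called higher after UVB in WT and KO skin. Of 14 partner genes, 4 fell and 4 rose after UVB in WT, 3 fell and 7 rose in KO skin, and 4 fell in KO against WT control skin. The median was -0.05, 0.35 and -0.45 in these comparisons. Tchh, the gene of trichohyalin, the granule protein that binds the sheath's keratin filaments together, went from 962 ± 414 to 29.2 ± 35.2 CPM in WT (-5.04 ± 0.73, adjusted p = 0.000320). In KO skin it went from 110 ± 53.0 to 10.6 ± 4.43 CPM (-3.38 ± 0.69, adjusted p = 0.00232), and in control skin it was lower in KO than in WT (-3.12 ± 0.67, adjusted p = 0.0251, and 0.0777 without KO control library 4). Padi3, an enzyme that citrullinates trichohyalin, showed the same directions, at -4.94 ± 0.55 after UVB in WT, -2.53 ± 0.58 after UVB in KO and -2.97 ± 0.48 in KO against WT control skin, each called. Tchhl1, a trichohyalin-like gene, did so too, at -4.28 ± 0.56, -1.82 ± 0.59 and -3.10 ± 0.52.

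Of the other 11 partners, 4 rose and 1 fell after UVB in WT, and 7 rose in KO skin. The transglutaminase Tgm3, which cross-links trichohyalin and epidermal proteins, rose after UVB from 12.5 ± 2.59 to 43.7 ± 7.80 CPM in WT (1.81 ± 0.29, adjusted p = 0.000625) and from 5.80 ± 1.06 to 46.4 ± 22.9 CPM in KO skin (3.00 ± 0.31, 2.3e-05). Tgm1 (1.17 ± 0.18 in WT, 0.88 ± 0.18 in KO), Rptn, the repetin gene (1.90 ± 0.51 and 3.53 ± 0.55), and Cdsn, the gene of the adhesion protein corneodesmosin (1.06 ± 0.15 and 0.99 ± 0.15), rose in both genotypes. Padi1 was lower in KO than in WT control skin (-2.92 ± 0.47, adjusted p = 0.00434), rose after UVB in KO (2.16 ± 0.47, 0.00314) and was not called in WT (-0.89 ± 0.42, 0.150). After UVB, KO against WT gave 1 call among the 14, the protease gene Ctsl (0.53 ± 0.11, adjusted p = 0.0342, and 0.115 without WT UVB library 2), beside 0.856% of all genes.

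Regulators of the sheath and matrix lineages had smaller fold changes than the keratins. Of 8 genes, 4 fell after UVB in WT, 4 fell in KO skin and 1 fell in KO against WT control skin, with medians of -0.35, -0.28 and -0.38. Msx2, a homeobox factor of the hair matrix, fell from 6.74 ± 2.34 to 2.41 ± 0.711 CPM in WT (-1.47 ± 0.30, adjusted p = 0.00307) and from 2.72 ± 0.836 to 1.33 ± 0.377 CPM in KO skin (-1.02 ± 0.32, 0.0231, and 0.0681 without KO control library 4). It was also lower in KO than in WT control skin (-1.31 ± 0.29, adjusted p = 0.0312, and 0.0513 without KO control library 4). Lef1, a Wnt effector of matrix cells, fell in WT (-1.41 ± 0.26, adjusted p = 0.00166) and KO skin (-0.83 ± 0.27, 0.0284, and 0.0627 without KO control library 4). Gata3, which directs cells to the inner root sheath, was at -0.34 ± 0.21 in WT (adjusted p = 0.267) and fell in KO skin (-0.81 ± 0.21, 0.00814). In KO against WT control skin Gata3 was not called (0.08 ± 0.21, adjusted p = 0.948). The control and UVB libraries of KO skin overlapped for Gata3, Msx2 and Lef1. Cux1, another sheath factor, fell by a small amount in both (-0.34 ± 0.09 and -0.33 ± 0.09). Several of these genes are also expressed outside the sheath.

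**Figure D5:**
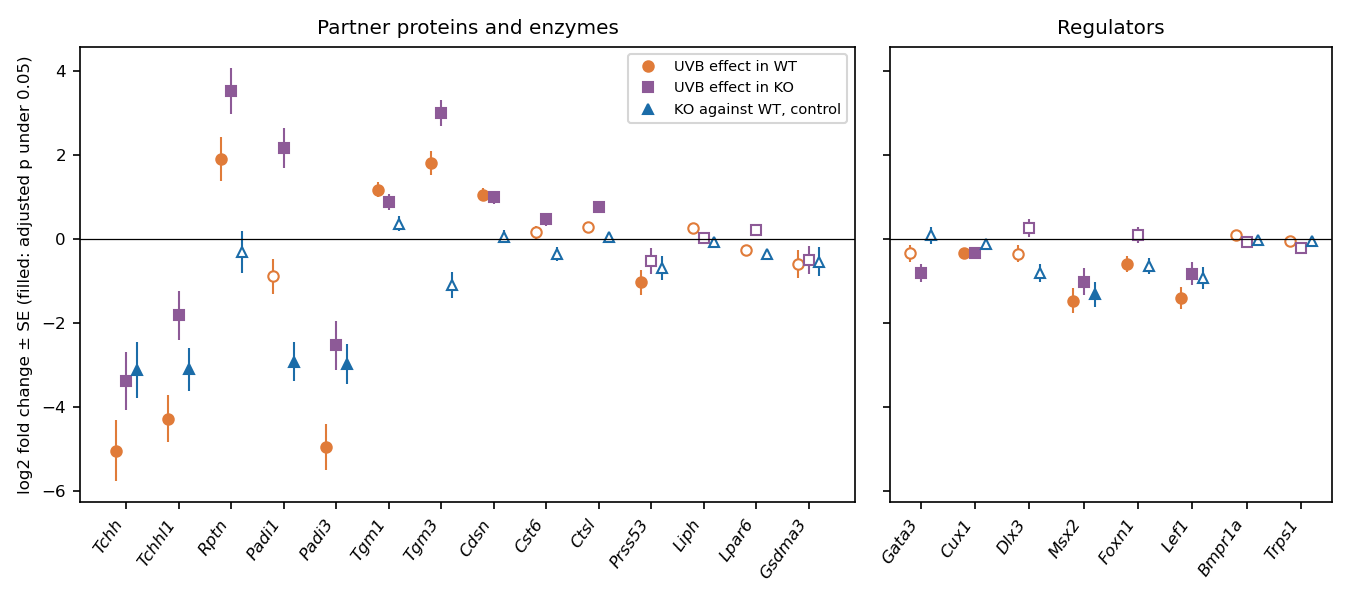
log2 fold change ± SE of 14 partner genes and 8 regulators of the inner root sheath in 3 comparisons (filled symbols, adjusted p under 0.05). Tchh, Tchhl1 and Padi3 are called lower in all 3 comparisons, at up to -5.04, while Tgm1, Tgm3, Rptn and Cdsn are called higher after UVB in both genotypes.

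Other hair genes moved with the inner root sheath keratins, and their part in the result was not tested. Of 15 hair shaft keratins, 15 fell after UVB in WT, 12 in KO skin and 13 in KO against WT control skin, with medians of -5.42, -4.23 and -3.03. Without KO control library 4 the count in control skin was 6, not 13 (median -2.79). Their sum was 150 to 413 CPM in WT control, 5.31 to 21.9 after UVB in WT, 22.5 to 57.5 in KO control and 3.59 to 5.33 after UVB in KO libraries. The sum of the 8 sheath keratins was 609 to 1652, 2.08 to 90.9, 35.6 to 150 and 2.10 to 8.31 CPM in the same groups. The sheath sum was thus 4.0 to 4.47 times the shaft sum in WT control, 1.58 to 5.21 times in KO control, 0.352 to 4.16 times in WT UVB and 0.393 to 1.61 times in UVB libraries of KO skin, and the value of 4.16 was that of WT UVB library 2. Of 9 markers of the hair matrix and shaft, 6 fell after UVB in WT, 5 in KO skin and 4 in KO against WT control skin, the last being Hoxc13, Dsg4, S100a3 and Crym. Without WT UVB library 2 the first count was 4, since the calls of Shh and Foxq1 ended. Without KO control library 4 the counts were 5, 4 and 3. The calls that ended were Shh in the first (adjusted p = 0.0592), Hoxc13 in KO skin after UVB (0.0503) and Dsg4 in control skin (0.0641).

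Markers of the outer layers and of other cells of the skin piece were counted in the same way. Of 9 keratins of the companion layer and outer root sheath, 4 rose and 2 fell after UVB in WT and 5 rose and 2 fell in KO skin. Among these, Krt75, a keratin of the companion layer that lies against Henle's layer, fell from 64.4 ± 4.95 to 26.2 ± 8.48 CPM in WT (-1.30 ± 0.25, adjusted p = 0.00235) and from 33.2 ± 11.4 to 15.7 ± 3.25 CPM in KO skin (-1.07 ± 0.25, 0.00517). None of the 9 was called in KO against WT control skin by edgeR, and 2 had an unadjusted p under 0.05, in opposite directions. Krt75 was lower in KO without overlap (-0.96 ± 0.25, adjusted p = 0.0704), and Krt6b was higher (2.88 ± 0.97, 0.212). Krt75 was called lower without WT UVB library 2 (0.0417) and without it and KO control library 4 together (0.0277). Of 7 bulge markers 0 were called after UVB in WT (3 with an unadjusted p under 0.05) and 4 fell in KO skin (2 without KO control library 4, 1 without both libraries). Skeletal muscle markers summed to 16130 to 20780 and 12620 to 18690 CPM in WT skin without and with UVB and to 19390 to 30050 and 9485 to 15510 CPM in KO skin, and 1 of 6 fell after UVB in WT (0 without both libraries) and 4 in KO skin (2 without KO control library 4). Sebaceous gland markers rose after UVB in 3 of 6 genes in each genotype. Of 6 pigment cell markers tested, 0 were called in either UVB comparison, and 0 had an unadjusted p under 0.05 there. In KO against WT control skin 5 of the 6 were lower at an unadjusted p under 0.05 (median -1.0), as were 5.72% of all genes. Of the 6, 2 were lower without overlap, against 4.63% of all genes, and 0 were called. The 5 became 3 without KO control library 4 and likewise without both libraries. After UVB, Pmel, a melanosome gene, was called lower in KO skin (-1.46 ± 0.28, adjusted p = 0.0234). The pigment markers summed to 35.0 to 73.7 CPM in WT control, 53.1 to 71.7 in WT UVB, 24.1 to 39.3 in KO control and 24.1 to 38.1 in KO UVB libraries. What these shifts add to the values of the sheath keratins was not tested.

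The genes whose levels most resembled the sum of the 8 over all 16 libraries were hair genes. Over genes with a mean count of at least 50, Pearson r of log2 levels was highest for Krtap4-2 (0.988), Krtap15 (0.988), Krt33a (0.987), Krtap3-1 (0.986), Krtap4-7, Krtap1-5, Tchh and Krtap4-1 (0.985 each), Gprc5d (0.984) and Krt35 (0.984). Of these, 6 encode keratin-associated proteins and 2 hair shaft keratins. Since the 16 libraries share the group differences, r was also taken over deviations from the group means. The highest were then Krtap15 (0.939), Krtap4-2 (0.924), Krtap4-7 (0.922), Krtap21-1 (0.919), Krtap3-1 (0.917), Krt33a (0.912), Krt35 (0.906), Tchh (0.902), Krtap4-6 (0.892) and Gprc5d (0.890). Points in both share library depth. Without WT UVB library 2 and KO control library 4, 8 of the 10 genes stayed among the 10 highest over levels (r of the 10 from 0.984 to 0.991, 14 libraries), but over deviations 1 of the 10, Krt35 (0.842), did, and r of those 10 ran from 0.503 to 0.842. The likeness within groups therefore rests on these libraries.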

How the data were processed

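RNA from dorsal skin was homogenised in liquid nitrogen, extracted with Trizol, enriched for poly(A) and made into libraries with a NEBNext Ultra II directional kit, per the labels' protocols. Reads were aligned to GRCm39 with STAR, per the submitters' processing notes. Its version and the annotation release are not given in those sources. The deposited values are raw read counts per gene in 16 tables, 1 per library, each with an unstranded count and a count for each strand. The reverse-strand counts held 95.74% of strand counts and were used under a rule of at least 80%. The authors' summed lines for unmapped (10.7 to 19.5%), no-feature (7.25 to 10.2%) and ambiguous reads (1.18 to 1.42%) stayed out of library sizes and tests. A combined table whose 17 columns carry no sample names was not used here. Symbols, gene order and exon lengths came from a GENCODE annotation of another build, which named 52083 of 55359 IDs (1.23% of reads were in unnamed IDs), so none of its coordinates is given.

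Counts were filtered with filterByExpr (17531 genes) and fitted as 1 model of the 4 groups, with no covariate, with edgeR 4.0.16 (TMM factors 0.94 to 1.07, robust quasi-likelihood) in R 4.3.3. Adjusted p-values are Benjamini-Hochberg over all genes tested within each of 5 contrasts, called under 0.05. CPM uses TMM library sizes, and levels per kilobase divide it by merged exon length. Likeness used log2 CPM with a prior count of 2 for each compared gene, and log2 of the summed CPM plus 0.1 for the 8 members. Alternatives were DESeq2 1.42.0, limma 3.58.1 voom with sample weights, DESeq2 size factors, no filter, a mean count of at least 100, unstranded counts, the 2 groups alone, a replicate block and each library left out. Leaving libraries out of the list counts and of likeness was added after seeing the data. A ratio on 3 reads or fewer has an exact 95% interval for counting error only. The 8 genes, the 11 gene lists and the promoter motifs were chosen with earlier results or the sequences of these data known. Named genes were the 8 members, list members (called genes of smallest adjusted p, and some not called), flanking keratins, both receptors and the 10 genes of highest likeness. Krt85 of the shaft list is not used here, and Oca2 of the pigment list did not pass the filter.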

Additional observations from a re-analysis of the deposited data

Results flagged for a closer look

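In 7 of 32 sets of 4 libraries (8 genes in 4 groups), 1 library lay far from the other 3, by a gap that took most of the set's range (Dixon's test at the 95% level). Chance gives about 1 in 20 such sets if values are normally distributed, which CPM near 0 need not be. Sets of genes that move together are also not independent. WT UVB library 2 accounted for 5 of them, being the highest of its group in each. It was at 17.2 CPM for Krt25, with the next library at 2.50, at 3.56 for Krt26 (next 0.0969), at 16.6 for Krt27 (next 0.944), at 41.6 for Krt71 (next 2.44) and at 4.84 for Krt72 (next 0.0923). KO control library 4 was the lowest of its group for Krt71, at 13.5 CPM with the next library at 60.1, and for Krt73, at 1.83 CPM with the next at 6.23.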

How the results depend on the processing

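Over 25 alternatives, values of single sheath keratins gave 980 comparisons with the value reported, of which 924 kept direction and side of the threshold, 23 passed it newly, 19 no longer passed and 14 changed sign, none of these called. All 8 falls in WT skin and the 7 in KO skin held wherever the gene was tested. With Krt74 they were 8 in KO skin with a replicate block and under 2 leave-outs (range 7 to 8). In KO against WT control skin, 4 genes called lower became 2 with DESeq2, 7 with limma voom, 1 with no filter, 7 with the 2 groups alone and 1 to 7 with 1 library left out. Leaving out WT UVB library 2 and KO control library 4 together, added after seeing the data, gave 7. After UVB, DESeq2 called 1 gene lower in KO. Signs turned after UVB without WT UVB library 2 for Krt27 (0.72), Krt71 (0.46) and Krt72 (0.52), whose lowest values with 1 library out were -3.05, -3.78 and -5.06, and likewise without both libraries (0.72, 0.45 and 0.52). For the difference of UVB effects they turned for Krt26 (1.21) and Krt72 (1.24) with limma voom, for Krt26 (2.50) and Krt72 (3.95) without WT UVB library 2 (2.31 and 3.73 without both), and for Krt25 (-0.69) and Krt71 (-0.45) without KO UVB library 3. With 1 library out these ran from -0.69 to 2.89 (Krt25), -2.06 to 2.50 (Krt26), -0.45 to 3.78 (Krt71) and -1.63 to 3.95 (Krt72). The cause was not tested.

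Same-numbered libraries of different groups share only a number. Their deviations correlated at -0.403 to 0.219, and with the number as a replicate block 6 genes, not 4, were called lower in KO against WT control skin, without Krt25 and Krt71. Counts over all genes moved by over 1.5 times as follows. UVB in WT called 3290, with voom 5117 and with 1 library left out 2039 to 3707. UVB in KO called 5666 and, with the 2 groups alone, 3506. KO against WT control called 297, with DESeq2 452, voom 589, a mean count of at least 100 93 and leave-outs 161 to 362. After UVB it was 150, with DESeq2 658, voom 1117, the 2 groups alone 79, the block 77, leave-outs 59 to 487 and both libraries out 66. The difference of effects called 4, with DESeq2 210, voom 459, no filter 22, the block 7, leave-outs 2 to 110 and both out 1. In UVB skin, 0 to 4 reads per library for Krt26 and Krt72 outside WT UVB library 2 limit any statement on genotype.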
